A study of Eragrostis tef with 16 samples.

Results

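Roots and shoots of tef (Eragrostis tef, an allotetraploid C4 cereal with an A and a B subgenome) were compared under low calcium, and each tissue difference was set beside the one measured at optimum calcium. The comparison rests on 8 of the 16 libraries of the series, 4 of low-calcium root and 4 of low-calcium shoot. The other 8, 4 of optimum-calcium root and 4 of optimum-calcium shoot, gave the reference. The plants were kept in hydroponic culture, and the calcium level of the solution is the one difference in growth that the labels name. The labels say nothing of cultivar, plant age, length of treatment or calcium concentration. Libraries of a group are numbered as replicates, with no plants or cultures named, so the p-values measure the spread between these libraries, which may be technical. All 5824 genes with values were members, out of 11458 listed IDs. Their header calls them target genes without saying of what, and the assay behind the values is not given, so "higher" and "lower" refer to the reads assigned to a gene. Fewer cells of a type and less RNA per cell cannot be told apart in such samples.

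Calcium enters plants through the root, travels upward in the xylem with the transpiration stream and is hardly moved again in the phloem, so shoots depend on a continuing supply. In cells it cross-links pectin in the wall, is stored in the vacuole by cation/proton exchangers and acts as a signal read by calmodulin, calcineurin B-like proteins and calcium-dependent kinases. Root and shoot differ by their basic functions: shoots hold the photosynthetic apparatus and a waxy cuticle, while roots take up water and minerals and carry suberised and lignified barriers.

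The authors deposited log2 values, which the files show to be scaled reads with 1 added before the logarithm. Whole reads recovered from them numbered 1.20 to 2.02 Mreads (megareads) per library in low-calcium root and 1.82 to 2.10 Mreads in low-calcium shoot, against 2.80 ± 0.500 and 2.70 ± 0.104 Mreads in the root and shoot of optimum calcium (SD, n = 4). Both tissue labels were checked with markers. The 15 green-tissue markers (chlorophyll-binding proteins, photosystem subunits and other chloroplast proteins) took 0.0880% to 0.0925% of gene reads in low-calcium root and 8.10% to 12.3% in low-calcium shoot. Of the 15, 14 were higher in shoot under low calcium. The 9 root markers split more: 5 were higher in root (both copies of ammonium transporter 1 member 2, both of nicotianamine synthase 2 and a YSL16), inorganic phosphate transporter 1-8 was higher in shoot by a difference of -3.34, and both copies of nicotianamine synthase 3 and another YSL16 did not pass. Together they took 0.416% to 2.21% in low-calcium root and 0.133% to 0.192% in low-calcium shoot, where the optimum-calcium shoot range was 0.122% to 0.219%. Summed over the 4 libraries of a group, none of the 24 markers was at 0 reads, while single root libraries had 0 for the P700 apoprotein A1 and the photosystem II protein PSB28. The title of 1 library names both tissues. Its source name is shoot, and it was kept as low-calcium shoot replicate 4. Its green-tissue share of 8.10% was the lowest of the 4, while its root marker share of 0.148% lay within the range of the other 3. That share says little of root tissue in this library, since its largest parts came from the root markers that did not pass. Both copies of nicotianamine synthase 3 had 9.27 and 9.81 in it and that YSL16 9.96, while the 5 markers higher in root had 3.46 to 6.40. The 203 genes at least 32-fold higher in root at optimum calcium had their highest low-calcium shoot median in it (3.30 against 2.55 to 3.16), and the 246 genes at least 32-fold higher in shoot their lowest (8.34 against 9.03 to 9.37). In the optimum-calcium shoot libraries, which served to choose both sets, the medians were 1.83 to 2.13 and 8.95 to 9.53. For the 203 genes all 4 low-calcium shoot libraries thus lay above the optimum-calcium ones, not replicate 4 alone. The part of low-calcium shoot replicate 4 in the results was not tested beyond leaving it out, and the main counts are also given without it.

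Under low calcium 3311 of 5824 genes (56.9%) differed between root and shoot at a limma adjusted p under 0.05, called "passed" from here on. Of these, 1655 (28.4% of all genes) were higher in root and 1656 (28.4%) higher in shoot. At optimum calcium 3878 genes (66.6%) passed, 1916 (32.9%) higher in root and 1962 (33.7%) higher in shoot. Scaling each library by its total of gene reads instead gave 2238 of 3537 calls (63.3%) higher in root under low calcium, where the deposited scale gave 1655 of 3311. This rescaling moved the median difference of all genes from 0.01 to 0.27 at low and from -0.04 to 0.41 at optimum calcium. Without low-calcium shoot replicate 4, 3309 genes passed, 2968 were kept, and 142 and 222 were at least 32-fold higher in root and in shoot, against 2907, 139 and 209 with it. In 52.5% of all genes the 4 root and 4 shoot libraries of low calcium, all included, did not overlap.

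Most tissue differences were present at both calcium levels. Those called kept, with a pass and the same sign at both, numbered 2907 genes (49.9%), which is 87.8% of the low-calcium calls and 75.0% of the optimum-calcium calls. Their size was mostly smaller under low calcium: 2056 of the 2907 (70.7%) had the smaller difference there, and leaving out any single library gave between 67.6% and 74.6%. The median of the 1419 kept genes higher in root was 1.54 on the log2 scale under low and 2.03 under optimum calcium. For the 1488 kept genes higher in shoot it was -1.75 and -2.04. Over all genes the median size of the tissue difference, sign ignored, was 0.64 under low and 0.87 under optimum calcium. Genes at least 32-fold higher in root numbered 139 under low and 203 under optimum calcium, and those at least 32-fold higher in shoot 209 and 246. These are counts of fitted values that no test compares.

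**Figure D1:**
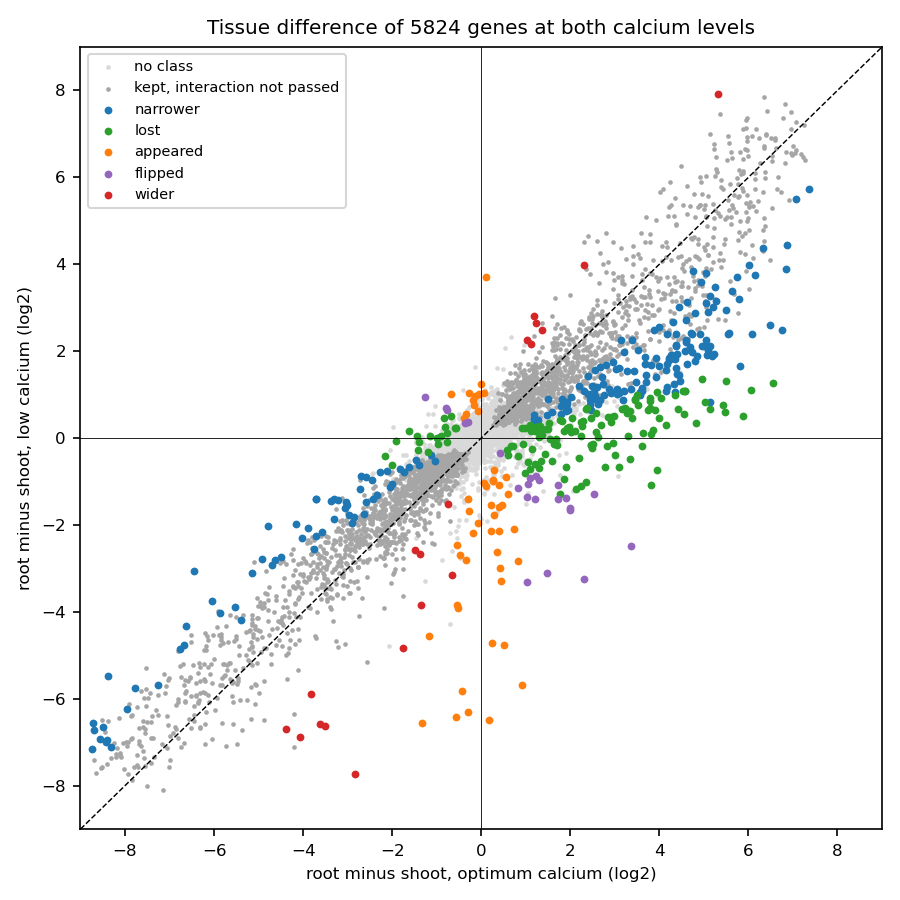
Each point is a gene, with its root minus shoot difference (log2) at optimum calcium on the horizontal and at low calcium on the vertical axis, and the dashed line marks equal differences. Grey points carry no tested change between calcium levels; the coloured classes together hold 431 genes, and most of them lie below the line where the optimum-calcium difference is above 0.

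The test of the tissue difference itself between calcium levels, an interaction in the same fit, passed for 431 genes (7.40%). In 325 (5.58%) root minus shoot was lower under low calcium and in 106 (1.82%) it was higher. By this test 207 genes (3.55%) were kept but narrower under low calcium, 19 (0.326%) kept but wider, 23 (0.395%) reversed sign with a pass at both levels, 49 (0.841%) appeared, with a pass under low calcium alone, and 133 (2.28%) were lost, with a pass at optimum calcium alone. A pass at a single level without the interaction was not read as a change: of 381 genes called under low calcium alone 49 had a passing interaction, and of 948 called at optimum calcium alone 133 did. With scaling by the total the interaction passed for 495 genes, of which 14.1% were above 0 against 24.6% on the deposited scale.

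The change lay mainly in the shoot. Of the 325 genes with a lower root minus shoot difference, 282 also differed between calcium levels in shoot and not in root, 14 in root and not in shoot, 23 in both and 6 in neither. All 305 of these with a pass in shoot were higher there under low calcium, a direction largely set by choosing genes with a lower difference. The calcium comparison itself passed for 39.4% of all genes in shoot and 8.33% in root, and it shares its libraries with the interaction. For the 106 genes with a higher difference the tissues were more even, 41 in shoot alone, 45 in root alone, 6 in both and 14 in neither.

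The low-calcium shoot libraries were spread in these genes. Among the 325, replicate 3 had the lowest of the 4 shoot values in 215 genes and replicate 4 the highest in 182. Among the 106, replicate 4 had the lowest value in 70 and replicate 3 the highest in 53. These counts are not set beside counts over all genes, so the order may not be particular to the changed ones. Over all genes the median SD of the log2 values was 0.33 in low-calcium shoot and 0.22 to 0.28 in the other groups. Without replicate 3 the interaction passed for 704 genes (335 narrower, 238 lost, 71 appeared) and without replicate 4 for 271 (135 narrower, 81 lost, 30 appeared). The count was 276 without replicate 2 and 261 without replicate 4 of low-calcium root, and 268 without optimum-calcium root replicate 1. In the 114 lost genes that had been higher in root, the median values of low-calcium shoot replicates 1 to 4 were 7.18, 7.32, 6.86 and 7.73, and the optimum-calcium shoot libraries lay between 4.36 and 4.79. These genes were chosen by an interaction that uses the same libraries, so these medians are a description only. The same holds for library orders and overlaps given below for genes named by their interaction. What sets replicates 3 and 4 apart was not tested.

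**Figure D2:**
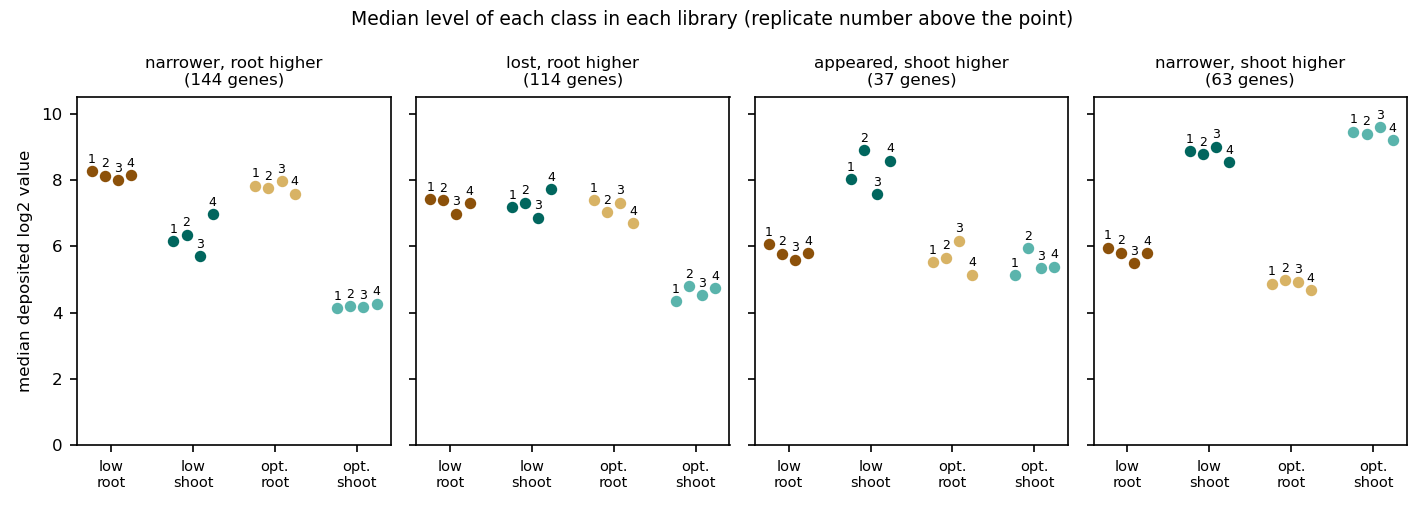
Median deposited log2 value of all genes of a class (vertical axis) in each library, grouped by tissue and calcium level, with the replicate number above each point. In the 3 left panels the low-calcium shoot libraries lie above the optimum-calcium ones, with replicate 3 lowest, while the root libraries of both levels lie close together.

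Genes with the highest shoot excess under low calcium, named by size, follow. Protochlorophyllide reductase (Et_7B_055072), which carries out a light-dependent step of chlorophyll synthesis, had log2 values of 4.73, 4.91, 4.40 and 4.85 in low-calcium root and 13.06, 13.23, 12.33 and 12.64 in low-calcium shoot. The tissues were far apart in every library, with a difference of -8.09 (SE 0.27, adjusted p 1.1e-12). Its interaction did not pass (-0.96 (SE 0.38, adjusted p 0.15)). Chloroplast glyceraldehyde-3-phosphate dehydrogenase A (Et_7B_053948), an enzyme of the Calvin cycle, differed by -7.71 (SE 0.28, adjusted p 2e-12), photosystem I subunit O (Et_7B_053707) by -7.57 (SE 0.21, adjusted p 3.4e-13) and the glycolate oxidase GLO1 (Et_4A_033980), a photorespiratory enzyme of peroxisomes, by -7.63 (SE 0.24, adjusted p 4.4e-13). The thylakoid lumenal 19 kDa protein (Et_8A_058258), with 13 reads over the 4 root libraries and 3123 over the 4 shoot libraries, differed by -8.02. CONSTANS-LIKE 16 (Et_1A_009381), of a family of zinc finger regulators linked to light and flowering, differed by -7.57 and purple acid phosphatase 2 (Et_10A_002169) by -7.73. A gene with no described function (Et_3B_029285) differed by -7.88. The last 2 described genes kept nearly the same difference at optimum calcium, -7.71 and -7.92.

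Of 41 photosynthesis and C4 genes, 36 were higher in shoot, 4 higher in root and 1 did not pass under low calcium, with a median of -5.45 against 0.01 for all genes. At optimum calcium the median was -5.47. They took 0.549% to 0.624% of gene reads in the low-calcium root and 10.2% to 16.3% in the low-calcium shoot libraries. Their most abundant member, chlorophyll a-b binding protein 1 (Et_2B_022256), had values of 16.66, 16.78, 16.93 and 16.06 in low-calcium shoot against 9.38, 9.34, 9.07 and 9.23 in root, a difference of -7.35 (SE 0.23, adjusted p 4.4e-13). The 4 members higher in root were 2 copies of phosphoenolpyruvate carboxylase 1 (1.85 for Et_1A_007735 and 1.54 for Et_1B_014155), a pyruvate, phosphate dikinase 2 (Et_4B_037143, 1.58) and a geranylgeranyl diphosphate reductase (Et_3A_026992, 4.99). They were named after their values were seen. The carboxylase and the dikinase are enzymes of the C4 pathway that also exist as forms outside photosynthesis. The interaction passed for 1 member, the carboxylase Et_1B_014155 (-1.72), without low-calcium shoot replicate 3 for 8 members, 6 above and 2 below 0, and without optimum-calcium shoot replicate 4 for 7, 4 above and 3 below 0.

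The genes with the highest root excess had varied descriptions. The largest difference was 7.93 (SE 0.49) in a gene with no described function (Et_1A_007903), which had 9.58, 9.73, 9.06 and 9.53 in low-calcium root and 2.10, 1.87, 1.15 and 1.08 in low-calcium shoot. It was wider than at optimum calcium (5.32), with an interaction of 2.61 (adjusted p 0.031) that was lost in 9 alternative settings. A gene described as containing a phosphorylase domain (Et_3B_030746) had 13.21, 13.12, 12.49 and 12.84 in low-calcium root and 5.45, 5.89, 5.13 and 6.03 in low-calcium shoot. Its difference of 7.29 (SE 0.30, adjusted p 8.9e-12) was nearly that of optimum calcium (7.06). Non-classical arabinogalactan protein 31 (Et_9B_065088), a glycoprotein of the wall, had values of 9.33, 9.45, 8.76 and 8.93 in root and 2.70, 1.22, 1.78 and 0.00 in shoot, where replicate 4 was at 0. Its difference was 7.69 (SE 0.43, adjusted p 2e-10). Expansin-B2 (Et_1A_006760), of a family that loosens walls, differed by 7.45 (SE 0.57, adjusted p 9.4e-09) with 1206 reads over the root and 5 over the shoot libraries. Laccase-15 (Et_1A_007059), an oxidase of a family that polymerises lignin, differed by 7.13 (SE 0.31, adjusted p 1.7e-11). Apyrase 3 (Et_8A_058424), which hydrolyses nucleotides, differed by 7.50, cytochrome P450 78A9 (Et_4B_037183) by 7.33 and an LRR receptor-like kinase (Et_8A_058293) by 7.21. For none of the described genes of this paragraph did the interaction pass. Values of shoots with so few reads depend on the offset of 1, which makes such differences too small.

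Thermospermine synthase ACAULIS5, which in Arabidopsis limits xylem formation in the stem, had 2 copies with unlike patterns. In low-calcium root the A copy (Et_1A_007729) had 9.43, 9.07, 9.17 and 9.25 and in low-calcium shoot 2.43, 3.17, 1.78 and 1.08, a difference of 7.11 (SE 0.49, adjusted p 2.4e-09) that was kept from optimum calcium (6.16). The B copy (Et_1B_012528) had 7.61, 7.68, 7.22 and 7.64 and 7.70, 7.23, 8.43 and 7.14, with no passing difference (-0.09 (SE 0.27, adjusted p 0.8)). At optimum calcium the B copy was higher in shoot (-1.41 (SE 0.27, adjusted p 0.00024)), and its interaction of 1.32 (SE 0.39, adjusted p 0.049) lay at the edge of the threshold. That call was lost with 18 of the alternative settings, among them leaving out 13 of the 16 libraries 1 at a time.

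The largest interactions among lost root differences included an oxidase and a sucrose synthase. Respiratory burst oxidase B (Et_10B_003796), a plasma membrane enzyme that makes superoxide and carries calcium-binding domains, had 7.27, 6.68, 6.10 and 6.79 in low-calcium root and 5.72, 6.59, 5.40 and 7.10 in low-calcium shoot. At optimum calcium root had 7.96, 6.66, 7.97 and 8.38 and shoot 0.98, 2.57, 2.46 and 1.44. The tissues overlapped under low calcium and were apart at optimum calcium, with differences of 0.50 (SE 0.46, adjusted p 0.37) and 5.88 (SE 0.46, adjusted p 8.3e-09) and an interaction of -5.37 (SE 0.65, adjusted p 0.00038). Sucrose synthase 2 (Et_4A_032822), which splits sucrose for use in the cell, had 11.42, 10.54, 8.58 and 12.19 in low-calcium shoot, the widest spread of the 4 groups, and 6.39, 6.68, 7.01 and 6.53 in optimum-calcium shoot. Its root values were 11.27, 11.38, 11.17 and 11.34 under low and 12.07, 11.49, 13.20 and 11.78 under optimum calcium. The SD ran from 0.09 in low-calcium root to 1.56 in low-calcium shoot, while the SE of the fit pools the 4 groups. Replicate 3 of the low-calcium shoot was the lowest and replicate 4 the highest, and the tissue difference was 0.61 (SE 0.54, adjusted p 0.36) against 5.48 (SE 0.54, adjusted p 1.5e-07). The proline-rich protein DC2.15 (Et_7B_055014) had the same order, with replicate 3 at 5.60 and the other 3 libraries at 8.71 to 9.66 in low-calcium shoot against 9.62, 10.15, 8.51 and 9.10 in root, a difference of 1.10 (SE 0.70, adjusted p 0.19) against 6.06 at optimum calcium. With voom its interaction did not pass (adjusted p 0.228). Without low-calcium shoot replicate 4, 81 genes in all were lost, and with voom on the recovered reads 63.

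Among the 19 genes that lost a shoot excess were 2 carriers of small sugars. Polyol transporter 5 (Et_5A_042868) had 10.20, 10.25, 10.05 and 10.33 in low-calcium and 8.60, 8.41, 9.32 and 8.29 in optimum-calcium root, with shoot values of 10.12, 11.34, 9.70 and 9.95 and 10.44, 10.64, 11.56 and 9.66. Its difference was -0.07 (SE 0.37, adjusted p 0.89) under low and -1.92 (SE 0.37, adjusted p 0.00021) under optimum calcium, and the interaction was 1.85 (SE 0.52, adjusted p 0.041). The monosaccharide transporter MST6 (Et_5B_044858) differed by -0.42 and -2.15, with an interaction of 1.74 (SE 0.46, adjusted p 0.032). Auxin response factor 10 (Et_7A_052547), of a group of auxin-pathway repressors targeted by miR160, differed by -0.62 and -2.01, with an interaction of 1.39 (SE 0.40, adjusted p 0.047). A lectin-domain receptor kinase (Et_2B_020570) differed by 0.05 and -1.44. The low-calcium difference of factor 10 passed with a replicate block (adjusted p 0.0484) and without shoot replicate 4 of low (0.0383) or optimum calcium (0.0454). It would then not count as lost, and as narrower only where its interaction passed as well. In all 4 of these genes the 4 low-calcium root values were above the 4 optimum-calcium root values. The interactions of polyol transporter 5, MST6 and factor 10 were lost in 13, 9 and 12 of the cases of a single library left out, at adjusted p-values up to 0.104.

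Of the 144 root differences that narrowed, the largest interaction was that of alcohol dehydrogenase 2. Alcohol dehydrogenase 2 (Et_6A_047661), which regenerates NAD+ in fermentation, had 10.20, 10.26, 10.67 and 10.63 in low-calcium root and 9.04, 9.76, 9.35 and 10.27 in low-calcium shoot. At optimum calcium it had 12.68, 12.12, 11.93 and 12.77 in root and 6.84, 7.33, 7.34 and 7.43 in shoot, so that root was lower and shoot higher under low calcium with no overlap in either tissue. Its difference was 0.84 (SE 0.25, adjusted p 0.0089) against 5.14 (SE 0.25, adjusted p 3.3e-11), an interaction of -4.30 (SE 0.35, adjusted p 9e-06). The receptor kinase TDR (Et_8B_059519), which in Arabidopsis receives a peptide signal that maintains the cambium, had 6.06, 5.40, 4.73 and 7.21 in low-calcium shoot and 1 read over the 4 optimum-calcium shoot libraries. Low-calcium root stood at 8.73, 8.56, 7.77 and 8.33, a difference of 2.50 (SE 0.41, adjusted p 7.1e-05). Expansin-B7 (Et_4A_033199) differed by 2.38 (SE 0.51, adjusted p 0.00079) against 6.07, laccase-5 (Et_3A_025396) by 1.66 (SE 0.49, adjusted p 0.0081) against 5.82 and phospholipase D alpha 1 (Et_4B_036989) by 1.31 (SE 0.37, adjusted p 0.0065) against 4.46. In each of these 3 the low-calcium shoot libraries were all above the optimum-calcium shoot libraries. Choosing narrowed root differences by an interaction that uses these libraries favours that order, so it is a description only. The calcium comparison in shoot passed for 39.4% of all genes. With voom their interactions did not pass (adjusted p 0.198, 0.143 and 0.0674), and voom called 83 narrower genes in all.

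A shoot excess appeared in 37 genes, of which the 5 named by size follow. A group 3 late embryogenesis abundant protein (Et_4A_034454), of a class that accumulates in drying seeds and tissues, had 7.34, 10.61 and 9.35 in replicates 1 to 3 of low-calcium shoot, with replicate 4 between them, 4.73, 2.04, 3.05 and 3.73 in low-calcium root and 1.97, 1.57, 1.70 and 2.40 in optimum-calcium shoot. The low-calcium shoot libraries were above every other library, with a tissue difference of -5.69 (SE 0.62, adjusted p 6.5e-07) and an interaction of -6.60 (SE 0.88, adjusted p 0.00047) that did not pass with voom (adjusted p 0.11). Fasciclin-like arabinogalactan protein 11 (Et_3A_027307), which in Arabidopsis is a stem protein of secondary walls, had 9.93, 10.27, 8.16 and 10.67 in low-calcium shoot and 6.08, 5.48, 4.12 and 4.32 in low-calcium root, where replicate 3 was the lowest in both. It differed by -4.76 (SE 0.70, adjusted p 1.9e-05), against 0.52 at optimum calcium (adjusted p 0.53). Laccase-4 (Et_3A_025399), a lignin oxidase of the same tissues, differed by -2.83 (SE 0.59, adjusted p 0.00063) and the flavonoid hydroxylase CYP75B3 (Et_1A_008959) by -3.28 (SE 0.47, adjusted p 1.3e-05). The long-chain alcohol oxidase FAO2 (Et_1A_005936) had 11.11, 11.47, 10.72 and 11.04 in low-calcium shoot and 8.68, 8.21, 8.38 and 8.57 in low-calcium root, a difference of -2.62 (SE 0.32, adjusted p 2.6e-06). Its optimum-calcium values were lower in both tissues, 7.49, 7.22, 7.45 and 8.12 in root and 6.78, 8.07, 6.22 and 7.79 in shoot. The median of the 37 genes was 5.74 in low-calcium root, 7.98 in low-calcium shoot, 5.51 in optimum-calcium root and 5.38 in optimum-calcium shoot. In 29 of the 37 replicate 3 had the lowest low-calcium shoot value, a count not set beside one for all genes.

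The 12 genes whose root excess appeared were of smaller size, and 3 of the named ones belong to the auxin pathway. Tryptophan aminotransferase 1 (Et_3B_030764), which makes the precursor of auxin, had 7.79, 7.74, 7.16 and 7.57 in low-calcium root and 6.24, 6.51, 6.86 and 5.64 in low-calcium shoot. It differed by 1.25 (SE 0.25, adjusted p 0.00037), while at optimum calcium the difference was -0.01 (adjusted p 0.96). Auxin-responsive protein IAA1 (Et_9B_066144), a repressor that auxin removes, had 10.47, 10.38, 10.12 and 10.40 in low-calcium root, and the other 3 groups lay between 9.47 and 10.06. Its difference was 0.76 (SE 0.13, adjusted p 9.7e-05) and its interaction 0.92 (SE 0.18, adjusted p 0.0067). Auxin response factor 9 (Et_7A_051103) differed by 0.55 (SE 0.16, adjusted p 0.0079), with root at 10.01, 10.19, 10.24 and 10.20 and shoot at 9.65, 9.46, 10.14 and 9.18, so replicate 3 of the shoot overlapped the root. The response regulator PRR1 (Et_1B_013402), of a family in the circadian clock, differed by 0.87 (SE 0.22, adjusted p 0.0027). The interaction of the aminotransferase was lost with 14 and that of PRR1 with 17 alternative settings, that of factor 9 without any 1 of 4 single libraries, and that of IAA1 with scaling by the total (adjusted p 0.06).

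Wider differences, 12 with a shoot and 7 with a root excess, were led by a chloroplast protease. FTSH 6 (Et_2B_021779), an ATP-dependent protease of the thylakoid, had 7.70, 10.40, 9.68 and 9.52 in low-calcium and 3.55, 5.51, 3.16 and 4.91 in optimum-calcium shoot, while root stayed at 2.97, 2.37, 0.00 and 1.08 and 2.27, 1.39, 1.25 and 0.86. The 4 low-calcium shoot libraries were above all others, with a difference of -7.72 (SE 0.70, adjusted p 7e-08) against -2.84. With voom its interaction did not pass (adjusted p 0.238). WSD1 (Et_4B_036831), which makes wax esters, had 8.96, 9.05, 9.07 and 8.48 in low-calcium shoot, with a narrow spread, and 6.84, 6.97, 6.80 and 7.37 in optimum-calcium shoot. It differed by -3.15 (SE 0.18, adjusted p 3.8e-10) against -0.65 (SE 0.18, adjusted p 0.0051), and this interaction passed with voom too. A xyloglucan endotransglucosylase (Et_6B_048704), which cuts and rejoins wall polymers, differed by -6.59 (SE 0.50, adjusted p 8.9e-09) against -3.61, with an interaction that did not pass with voom (adjusted p 0.193). A pseudocount of 5 in place of 1 gave 32 wider genes and voom 5. The count was 12 without low-calcium root replicate 2 or 4 or optimum-calcium shoot replicate 1, and 11 without low-calcium shoot replicate 4.

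Of the 23 genes that reversed, 18 went from a root excess at optimum calcium to a shoot excess under low calcium. A leucine-rich repeat kinase described after At2g19210 (Et_9A_061967) had 7.35, 6.70, 6.12 and 6.50 in low-calcium root and 7.95, 8.63, 7.13 and 9.59 in low-calcium shoot. Its optimum-calcium values were 4.94, 3.97, 6.53 and 4.37 in root and 2.29, 3.45, 3.33 and 2.80 in shoot. Its mean under low calcium was higher in shoot (8.32 against 2.97) and in root (6.66 against 4.95), where the libraries of both levels overlapped. The difference went from 1.99 to -1.66 (SE 0.54, adjusted p 0.015). Filament-like plant protein 7 (Et_1A_008609) went from 1.72 to -1.07 (SE 0.36, adjusted p 0.017), the isoflavone reductase homolog IRL (Et_3A_026103) from 1.20 to -1.41 (SE 0.48, adjusted p 0.019) and ABCG36 (Et_3A_024381), a transporter of the plasma membrane with roles in defence, from 1.30 to -0.96 (SE 0.39, adjusted p 0.047). The low-calcium difference of ABCG36 was lost in 16 alternative settings, that of the kinase Et_9A_061967 without low-calcium shoot replicate 4 (-1.24, adjusted p 0.0593), that of filament-like protein 7 in 3 and that of IRL in 2. The interaction of IRL was lost in 7 settings and that of the kinase with voom (adjusted p 0.132). The number of reversed genes was 14 without low-calcium root replicate 4 or low-calcium shoot replicate 2 and 15 without optimum-calcium root replicate 1.

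**Figure D3:**
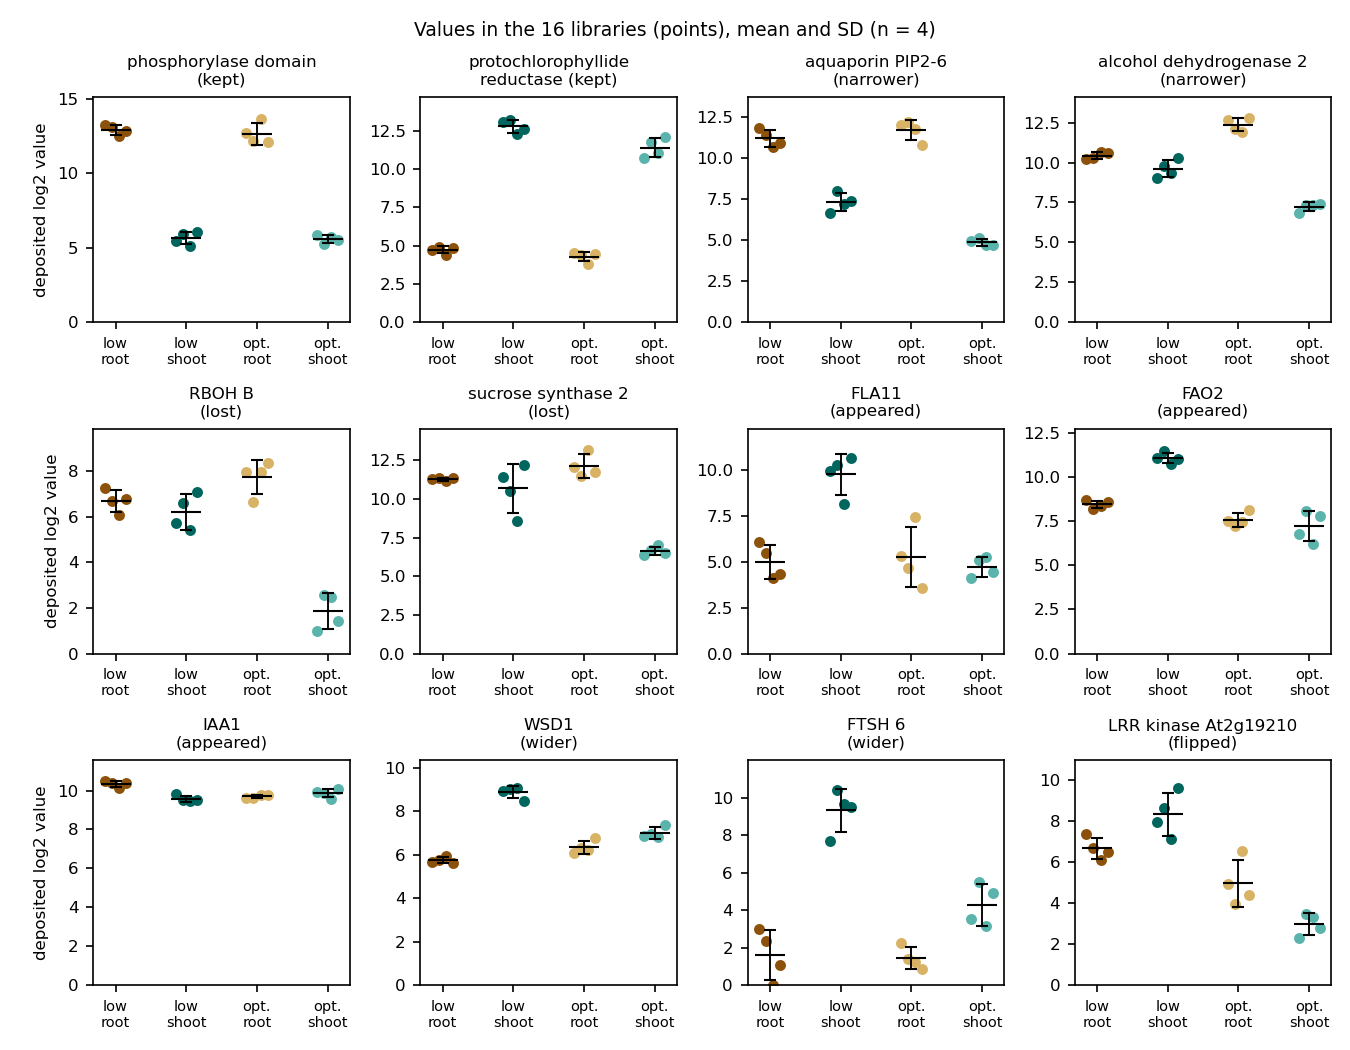
Deposited log2 values (vertical axis) of 12 named genes in the 16 libraries, grouped by tissue and calcium level, with the mean and SD of each group (n = 4). In the genes marked lost the low-calcium shoot points reach the root points, while in those marked kept the tissues stay apart at both levels.

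Gene lists drawn by words in the descriptions were then read at both calcium levels, beside the 28.4% of all genes in each direction under low calcium. At optimum calcium 32.9% of all genes were higher in root and 33.7% higher in shoot. The interaction passed below 0 for 5.58% and above 0 for 1.82% of all genes. All 6 water channels were higher in root under low calcium, as at optimum calcium, with medians of 2.56 and 4.19. The vacuolar aquaporin TIP2-3 (Et_7A_052379) had 12.26, 11.99, 11.17 and 11.47 in low-calcium root and 4.99, 5.53, 4.44 and 5.43 in low-calcium shoot and differed by 6.62 (SE 0.30, adjusted p 2.2e-11). PIP2-6 (Et_5A_040899), a plasma membrane water channel, was the member that narrowed. Low-calcium shoot stood at 6.67, 8.02, 7.21 and 7.39 and optimum-calcium shoot at 4.92, 5.15, 4.69 and 4.69, with no overlap, and the difference was 3.90 (SE 0.32, adjusted p 1.8e-08) against 6.85. TIP1-1 (Et_4A_031850), the member with the most reads under low calcium, differed by 1.17 (SE 0.32, adjusted p 0.0048).

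Of 57 genes for the uptake and transport of nitrogen, phosphate, sulfate, silicon and potassium, 16 were higher in root, 28 higher in shoot and 13 did not pass, with a median of -0.56. At optimum calcium 14 and 31 passed. Potassium transporter 1 (Et_7B_053648) was higher in root by 1.63 (SE 0.17, adjusted p 4.3e-07), with 10.72 in replicate 1, the lowest of low-calcium root, and 9.37, 9.56, 9.32 and 8.90 in low-calcium shoot. The nitrate transporter NRT1/PTR family 6.3 (Et_8B_059278) was higher in root by 1.46 (SE 0.28, adjusted p 0.00027), and potassium transporter 2 (Et_3B_030202) was higher in shoot, with a difference of -1.74 (SE 0.22, adjusted p 2.9e-06). The interaction passed above 0 for 1 member and below 0 for 1. Without low-calcium shoot replicate 3 it passed above 0 for 10 and without optimum-calcium shoot replicate 4 for 4.

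Of 31 genes of metal chelation and transport, 8 were higher in root, 5 higher in shoot and 18 did not pass, against 16 and 5 at optimum calcium. Scaling by the total, which raised the root count over all genes to 2238 from 1655, gave 14 higher in root under low calcium. Several of them belong to the mugineic acid pathway, by which grasses take up iron. Mugineic-acid 3-dioxygenase (Et_1A_008739) had 15.74, 15.62, 14.14 and 14.93 in low-calcium root and 10.27, 10.95, 10.94 and 10.65 in low-calcium shoot and differed by 4.40 (SE 0.38, adjusted p 4e-08). Nicotianamine synthase 2 differed by 6.46 (SE 0.48, adjusted p 7e-09) (Et_4A_031983) and 6.56 (SE 0.55, adjusted p 3e-08) (Et_4B_036193), although both were low in low-calcium root replicate 3, at 11.31 and 10.51 against at least 11.89 in the other root libraries. Both copies of nicotianamine synthase 3 passed as higher in root at optimum calcium and not under low calcium, at 1.12 (adjusted p 0.12) for Et_5A_042763 and 0.31 (adjusted p 0.67) for Et_5B_045489, against 3.18 and 2.01. Their interactions did not pass (adjusted p 0.16 and 0.23), and they were named after their values were seen. The interaction passed below 0 for 7 members (22.6%, against 5.58% of all genes) and above 0 for none. Of the 7, 6 were lost differences. Of these 6, 5 are heavy metal-associated isoprenylated proteins, a family of small metal carriers, which were named after their values were seen. Copies of member 39 differed by 0.69 (Et_4A_032624) and -0.74 (Et_4B_039347), against 3.79 and 3.94 at optimum calcium.

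Of 34 calcium transport genes 6 were higher in root, 10 higher in shoot and 18 did not pass, with a median of -0.14 at low and -0.14 at optimum calcium, where 6 and 14 passed. With scaling by the total the low-calcium counts were 10 and 6, so the direction of this list depends on the scale. Over all genes that scaling also moved calls toward root, to 2238 of 3537 from 1655 of 3311, so the move is not particular to this list. Vacuolar cation/proton exchanger 1a (Et_3B_028509), which loads calcium into the vacuole, had 5.96, 6.03, 6.53 and 6.86 in low-calcium root and 8.26, 9.48, 9.64 and 8.92 in low-calcium shoot, against 11.26, 11.36, 11.84 and 12.04 in optimum-calcium shoot. The shoot excess remained in all libraries and was narrower, -2.73 (SE 0.35, adjusted p 4.5e-06) against -4.50 (interaction 1.76 (SE 0.50, adjusted p 0.043)). That interaction was lost in 14 alternative settings. Annexin D7, a calcium-dependent membrane protein, was higher in root in both copies, by 2.64 (SE 0.17, adjusted p 9e-10) (Et_1A_007378) and 1.85 (SE 0.24, adjusted p 4.3e-06) (Et_1B_012333). The exchanger NCL1 (Et_3A_023829) was higher in shoot, with a difference of -0.59 (SE 0.21, adjusted p 0.026), a call lost with scaling by the total and without low-calcium root replicate 3 or any 1 of low-calcium shoot replicates 1 to 3.

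Of 61 calcium sensing genes 18 were higher in root, 16 higher in shoot and 27 did not pass, against 17 and 23 at optimum calcium. The shoot count under low calcium was 9 with scaling by the total and 10 without low-calcium shoot replicate 3. Over all genes that scaling moved calls toward root, to 2238 of 3537 from 1655 of 3311. Calmodulin-binding protein 60 D (Et_1B_010395) was higher in shoot, with a difference of -0.91 (SE 0.18, adjusted p 0.00037) and calcium-dependent protein kinase 13 (Et_7B_054904) higher in root by 0.82 (SE 0.20, adjusted p 0.0024). IQ-DOMAIN 32 (Et_7B_053989), a protein that binds calmodulin, had 10.17, 9.55, 9.42 and 10.04 in low-calcium shoot, above the 8.45, 8.65, 8.91 and 8.87 of low-calcium root and the 7.92, 8.51, 8.11 and 8.49 of optimum-calcium shoot. Its shoot excess of -1.07 (SE 0.19, adjusted p 0.00011) appeared under low calcium (interaction -1.47 (SE 0.26, adjusted p 0.0032)).

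**Figure D4:**
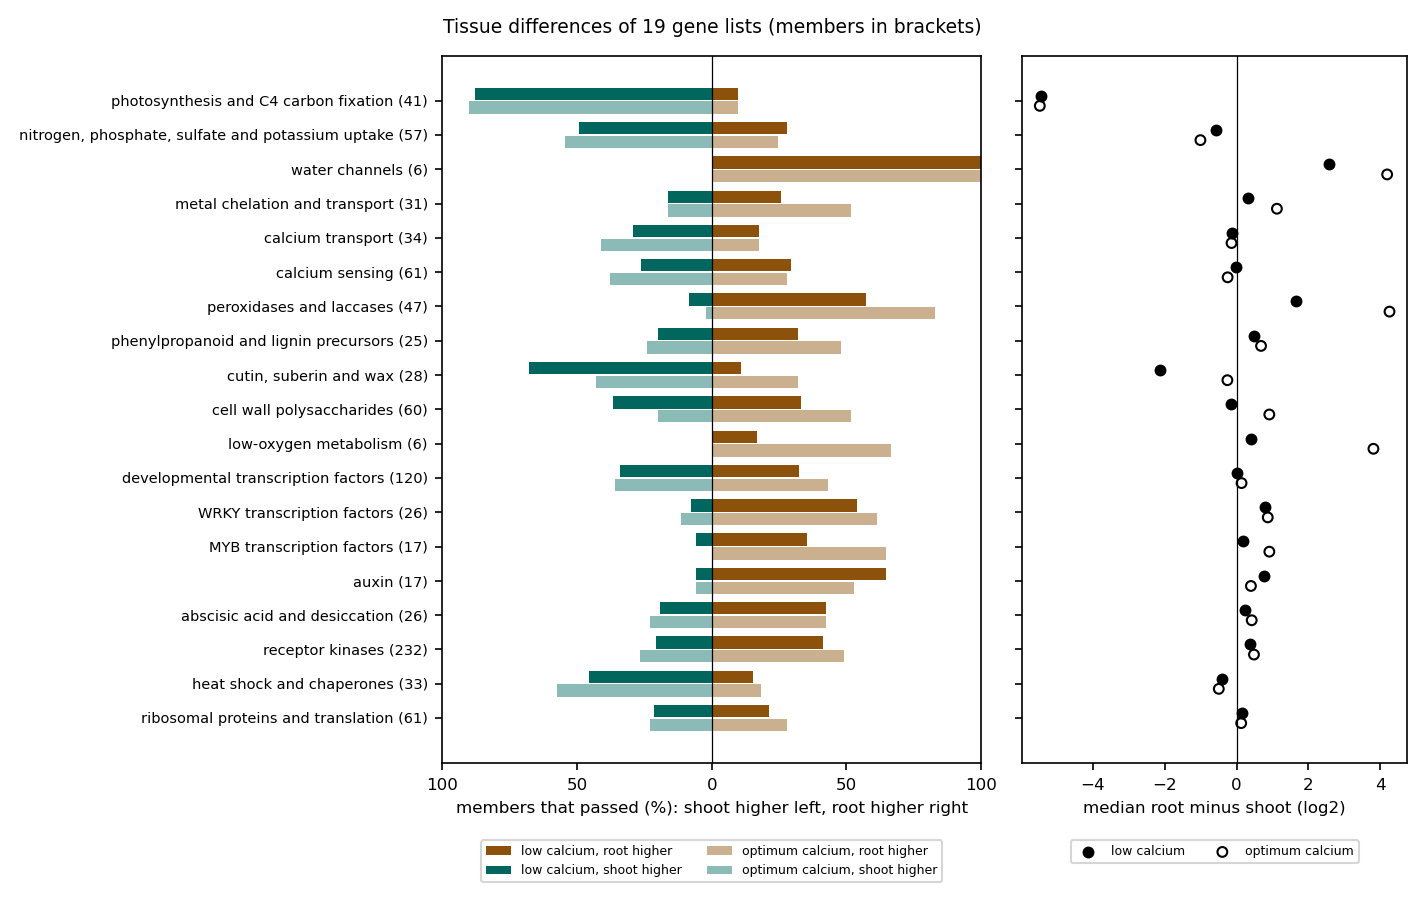
Left, the share of each list's members that passed as higher in shoot (bars to the left) or higher in root (bars to the right) at low and optimum calcium; right, the median root minus shoot difference (log2) of each list. Peroxidases and laccases, cutin genes, cell wall genes and low-oxygen genes have medians further left under low calcium, while photosynthesis genes have nearly the same median at both levels.

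Peroxidases and laccases, the oxidases that cross-link wall phenolics and polymerise lignin, were mostly higher in root at optimum calcium. Of 47, 27 were higher in root, 4 higher in shoot and 16 did not pass under low calcium, with a median of 1.66, against 39 and 1 and a median of 4.26 at optimum calcium. They took 2.40% ± 0.347 of gene reads in low-calcium root and 0.575% ± 0.227 in low-calcium shoot, against 1.08% ± 0.238 and 0.119% ± 0.0392 at optimum calcium (SD, n = 4), so the share was higher under low calcium in both tissues. Peroxidase 2 (Et_3B_030949) had 11.68, 11.96, 10.71 and 11.54 in low-calcium root and 4.99, 5.93, 4.97 and 5.73 in low-calcium shoot and differed by 6.07 (SE 0.40, adjusted p 1.4e-09), while peroxidase 47 (Et_8B_060541) differed by 5.18 (SE 0.28, adjusted p 1.4e-10). Peroxidase 72 (Et_3B_030041) narrowed to 3.99 (SE 0.37, adjusted p 1.1e-07) from 6.01, by an interaction lost in 10 alternative settings. The cationic peroxidase SPC4 (Et_7A_051522) had 10.17, 11.79, 10.02 and 12.30 in low-calcium shoot, an uneven group, and differed by 2.62 (SE 0.51, adjusted p 0.00031) with an interaction that did not pass (adjusted p 0.087). The interaction passed below 0 for 11 members (23.4%, against 5.58% of all genes). This count fell to between 4 and 7 without any 1 of the 4 low-calcium root libraries, low-calcium shoot replicates 2 or 4, optimum-calcium root replicates 1, 2 or 3 or optimum-calcium shoot replicate 1, and rose to 18 without low-calcium shoot replicate 3.

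Of 25 phenylpropanoid and lignin genes, 8 were higher in root, 5 higher in shoot and 12 did not pass under low calcium. The interaction passed for 1, a hydroxycinnamoyltransferase 4 (Et_2B_022705, -3.36), where it passed for 7.40% of all genes. Both abundant copies of cinnamoyl-CoA reductase 1, which reduces lignin precursors to aldehydes, were higher in shoot, by -2.27 (SE 0.39, adjusted p 9.9e-05) (Et_8B_060072) and -2.38 (SE 0.29, adjusted p 2.8e-06) (Et_8A_057718). Dirigent protein 21 (Et_6B_049313) was higher in root by 0.76 (SE 0.24, adjusted p 0.014).

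Of 60 cell wall polysaccharide genes, 20 were higher in root, 22 higher in shoot and 18 did not pass under low calcium, with a median of -0.15, against 31 and 12 and a median of 0.91 at optimum calcium. The interaction passed below 0 for 18 members and above 0 for 1, where 5.58% and 1.82% of all genes did. Cellulose synthase A subunits 7 and 9, which in grasses build the cellulose of secondary walls, had a shoot excess under low calcium. Subunit 7 (Et_1A_005975) had 11.03, 11.54, 10.06 and 11.34 in low-calcium shoot, 9.41, 9.06, 8.16 and 8.75 in low-calcium root and 7.59, 8.82, 8.90 and 7.10 in optimum-calcium shoot. It differed by -2.15 (SE 0.48, adjusted p 0.0012), and the interaction was -2.37 (SE 0.68, adjusted p 0.046), lost in 14 alternative settings. The copies of subunit 9 differed by -1.86 (SE 0.49, adjusted p 0.0039) (Et_2A_018320) and -2.30 (SE 0.53, adjusted p 0.0014) (Et_2B_022375), but their interactions did not pass (adjusted p 0.11 and 0.17). In all 3 genes low-calcium shoot replicate 3 was more than 1 log2 unit below some other shoot library, at 10.06, 10.18 and 10.14. A polygalacturonase (Et_2B_020416), which cleaves pectin, stayed higher in root by 2.20 (SE 0.30, adjusted p 8.9e-06), narrower than the 4.59 of optimum calcium.

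Cutin, suberin and wax genes had the most reversed calls of the 19 lists. Of 28, 3 were higher in root, 19 higher in shoot and 6 did not pass under low calcium, with a median of -2.14, against 9 and 12 and a median of -0.25 at optimum calcium. The interaction passed below 0 for 9 members (32.1%, against 5.58% of all genes). The 4 that reversed, named after their values were seen, were both copies of the fatty acid hydroxylase CYP86A4 and of BODYGUARD 3. CYP86A4 (Et_7A_053112) had 5.70, 4.86, 5.23 and 5.48 in low-calcium root and 7.92, 8.18, 6.41 and 8.73 in low-calcium shoot, a difference of -2.49 (SE 0.47, adjusted p 0.00024). 3-Ketoacyl-CoA synthases, which elongate fatty acids for waxes, include 2 named members with a shoot excess. Synthase 5 (Et_3B_031100) had 3.69, 3.05, 3.05 and 4.15 in low-calcium root and 10.65, 11.22, 11.21 and 11.18 in low-calcium shoot, a difference of -7.58 (SE 0.37, adjusted p 5.5e-11) against -7.80, and synthase 1 (Et_4B_039952) differed by -2.54 (SE 0.27, adjusted p 5.3e-07).

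Of 6 low-oxygen genes 4 were higher in root at optimum calcium and 1, alcohol dehydrogenase 2, under low calcium. The interaction passed below 0 for 4 of the 6, against 5.58% of all genes. The median difference was 0.40 against 3.81. Besides the genes above, non-symbiotic hemoglobin (Et_1A_007077) differed by 0.67 (SE 0.61, adjusted p 0.37) against 5.15, and the second sucrose synthase 2 (Et_4B_037022) by -0.23 (SE 0.37, adjusted p 0.61) against 2.48. These 2 were named after their values were seen.

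The list of developmental transcription factors held 120 genes, of families such as auxin response factors, homeodomain proteins and NAC proteins. Under low calcium 39 (32.5%) were higher in root, 41 (34.2%) higher in shoot and 40 did not pass, near the 28.4% of all genes. At optimum calcium 52 and 43 passed, where 32.9% and 33.7% of all genes did. HOX16, a homeodomain-leucine zipper protein, was higher in shoot in both copies, by -1.78 (SE 0.14, adjusted p 1.6e-08) (Et_1B_014247) and -1.45 (SE 0.14, adjusted p 1.7e-07) (Et_1A_009388). BEL1-like homeodomain protein 4 (Et_4A_033712) had 8.44, 8.41, 8.17 and 8.54 in low-calcium root and 11.40, 11.26, 11.56 and 10.72 in low-calcium shoot, a difference of -2.84 (SE 0.19, adjusted p 1.8e-09) that was nearly the same at optimum calcium (-3.16). Auxin response factor 23 (Et_6B_048672) was higher in shoot, with a difference of -0.73 (SE 0.15, adjusted p 0.00062). The interaction passed above 0 for 6 and below 0 for 10 members (8.33% below 0, against 5.58% of all genes). The 6 fell to between 1 and 3 without any 1 of 11 of the 16 libraries.

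WRKY factors regulate defence and stress genes. Of 26, 14 were higher in root, 2 higher in shoot and 10 did not pass under low calcium, against 16 and 3 at optimum calcium, with medians of 0.79 and 0.87. The interaction passed for 0 of 26, where it did for 7.40% of all genes. WRKY17 (Et_8A_056058) differed by 1.42 (SE 0.28, adjusted p 0.00034), and the copies of WRKY76 by 1.23 (SE 0.44, adjusted p 0.025) (Et_2A_016308) and 1.46 (SE 0.44, adjusted p 0.01) (Et_2B_020390). The call of Et_2A_016308 was lost without low-calcium root replicates 1 (adjusted p 0.0723) or 4 (0.0578) or low-calcium shoot replicate 1 (0.101). Of 17 MYB factors 6 were higher in root and 1 higher in shoot under low calcium, against 11 and 0 at optimum calcium. MYBS3 (Et_3B_031150), of a family that controls sugar-responsive genes in rice, had 8.17, 8.26, 8.36 and 8.41 in low-calcium root and 7.10, 6.83, 6.60 and 6.32 in low-calcium shoot. It narrowed to 1.59 (SE 0.23, adjusted p 2e-05) from 3.03, and MYB4 (Et_1B_013312) differed by 1.56 (SE 0.42, adjusted p 0.0047).

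Of 17 auxin genes, 11 were higher in root, 1 higher in shoot and 5 did not pass under low calcium, against 9 and 1 at optimum calcium. An indole-3-acetaldehyde oxidase (Et_4B_038157) differed by 1.46 (SE 0.27, adjusted p 0.00018), and both copies of IAA5 by 1.18 (SE 0.15, adjusted p 4.9e-06) (Et_3A_024640) and 0.72 (SE 0.15, adjusted p 0.00068) (Et_3B_029029). Of 26 genes of abscisic acid and desiccation 11 were higher in root, 5 higher in shoot and 10 did not pass under low calcium, against 11 and 6 at optimum calcium. Most are protein phosphatases 2C, a family with members that hold back abscisic acid signalling. Phosphatase 5 (Et_3A_024091) had 4.53, 4.14, 4.63 and 4.85 in low-calcium root and 10.15, 10.05, 10.86 and 9.26 in low-calcium shoot, a shoot excess of -5.54 (SE 0.30, adjusted p 1.3e-10) kept from optimum calcium (-6.24). Phosphatases 35 (Et_4A_034200) and 62 (Et_5B_045063) were higher in root by 1.50 (SE 0.22, adjusted p 2e-05) and 1.36 (SE 0.15, adjusted p 7.6e-07).

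Of 232 receptor kinases, the cell-surface proteins that sense peptides, wall fragments and microbes, 96 were higher in root, 48 higher in shoot and 88 did not pass under low calcium, against 114 and 62 at optimum calcium. The median was 0.36 and 0.49. A leucine-rich repeat kinase (Et_10B_004142) had 11.76, 11.38, 11.50 and 11.70 in low-calcium root and 7.15, 7.66, 7.16 and 7.98 in low-calcium shoot and differed by 4.10 (SE 0.30, adjusted p 5.5e-09). Another, described after At5g49770 (Et_4B_036691), was higher in shoot, with a difference of -1.31 (SE 0.17, adjusted p 6.1e-06), narrower than the -2.35 of optimum calcium by an interaction that did not pass with scaling by the total (adjusted p 0.0546). The interaction passed above 0 for 11 and below 0 for 21 members (9.05% below 0, against 5.58% of all genes). Scaling by the total turned the 11 into 5, where it turned 106 into 70 over all genes, and leaving out optimum-calcium shoot replicate 4 turned the 11 into 17. Without any 1 of low-calcium root replicates 1, 2 and 4 they were 7. The 21 became 35 without low-calcium shoot replicate 3 and 12 or 13 without low-calcium root replicates 3 or 4, low-calcium shoot replicate 4 or optimum-calcium root replicate 1.

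Of 33 heat shock proteins and chaperones, 5 were higher in root, 15 higher in shoot and 13 did not pass under low calcium, against 6 and 19 at optimum calcium. The 5 became 3 without any 1 of low-calcium root replicates 2 to 4 or low-calcium shoot replicates 1 or 3. Stromal 70 kDa heat shock-related proteins differed by -2.70 (SE 0.22, adjusted p 1.6e-08) (Et_9A_061393) and -2.43 (SE 0.19, adjusted p 1.3e-08) (Et_9B_065689), and the chloroplast protease subunit ClpC1 by -1.33 (SE 0.15, adjusted p 8.9e-07) (Et_7A_051977) and -0.94 (SE 0.13, adjusted p 1.3e-05) (Et_7B_053636). Of 61 ribosomal and translation genes 13 were higher in root, 13 higher in shoot and 35 did not pass. The interaction passed for 0 of them, where it did for 7.40% of all genes. With scaling by the total 26 were higher in root, where the count over all genes rose to 2238 from 1655. Elongation factor 1-alpha differed by 0.74 (SE 0.16, adjusted p 0.001) (Et_7A_052574) and 0.60 (SE 0.16, adjusted p 0.0043) (Et_9B_064215), and the shoot excess of initiation factor 5 (Et_1A_004761), -0.33 (SE 0.13, adjusted p 0.045), was lost with scaling by the total and in 11 cases of a library left out.

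Copies from both subgenomes were compared as pairs, genes with the same best hit and with A and B of the same chromosome number in their IDs. Among 1425 pairs the low-calcium tissue difference of the copies was apart by a median of 0.30 on the log2 scale, with 90% of pairs within 1.15. Across pairs, which are not independent replicates, Spearman's rho of the copies' differences was 0.827 and Pearson's r 0.904, as a description. Reads can be divided wrongly between near-identical copies, which would make copies look alike. In 581 pairs both copies passed in the same direction, 279 in root and 302 in shoot, in 361 a single copy passed and in 464 neither. The interaction passed for both copies of 54 pairs, 53 with the same sign, and for a single copy of 94 pairs.

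In 19 pairs the copies passed in opposite directions, and the pairs named here were chosen after their values were seen. Very-long-chain enoyl-CoA reductase, the last enzyme of fatty acid elongation, was higher in shoot by -4.75 in the A copy (Et_5A_042665) and higher in root by 1.42 in the B copy (Et_5B_044238). Wall-associated receptor kinase 2 differed by -2.67 (Et_1A_005512) and 2.12 (Et_1B_013625). ATP-sulfurylase 3, which activates sulfate, differed by -1.14 (Et_4A_033764, adjusted p 0.003) and 1.99 (Et_4B_037913, adjusted p 8.4e-06). The signs of these 3 pairs were the same at optimum calcium. Argonaute 1B, a protein that binds small RNAs, had differences of 0.58 (Et_7A_052294) and -0.54 (Et_7B_054938), both with an adjusted p of 0.049.

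**Figure D5:**
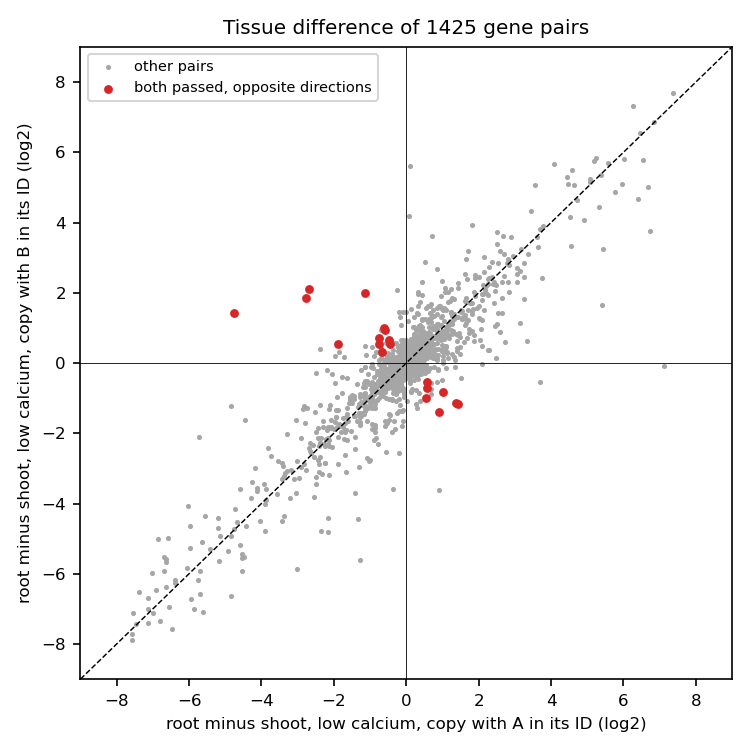
Each point is a pair of copies, with the low-calcium root minus shoot difference (log2) of the copy with A in its ID on the horizontal and of the copy with B on the vertical axis; the dashed line marks equal differences. Most of the 1425 pairs lie near the line, and the 19 red pairs passed in opposite directions.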

How the data were processed

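RNA of 16 tef libraries was sequenced per the labels, and 1 table of gene values was used. The tissue letter and library number in each of the 16 column names gave its library. The authors deposited log2 values; per the file headers they belong to target genes, and the aligner, counter and genome build are not stated in the labels or headers. Undoing the logarithm and the offset of 1 gave whole multiples of 1 step per library for 100% of 93184 values (tolerance 0.1 of a step), and these recovered reads served as depth (1.20 to 2.02 Mreads in low-calcium root, 1.82 to 2.10 Mreads in low-calcium shoot). The scaling factors are the authors' own.

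The deposited log2 values of 5824 genes were fitted in limma (version 3.58.1, R 4.3.3) with a variance trend and 1 term per group over all 16 libraries. Contrasts were root minus shoot at each calcium level, their difference (the interaction) and low minus optimum calcium in each tissue. The groups share 1 estimate of the spread per gene, so the SE of a gene is the same at both calcium levels even where its groups spread unequally. P-values were adjusted by Benjamini-Hochberg across the whole table, and 0.05 was the threshold. The code was tested on simulated data. Tables and plots were made with Python 3.11.15, numpy 2.4.6, pandas 2.3.3 and matplotlib 3.10.9.

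Descriptions are the table's best hits, in foxtail millet for 5405 genes, rice for 126 and sorghum for 75, and 218 genes had none. A description shared by several genes, as in 3594 of them, may not tell close copies apart, and whether reads were split between copies is not stated. No sequences were used.

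Named genes were the 10 largest rises and falls among passed genes with a mean of at least 50 CPM over the 8 low-calcium libraries, at most 1 per description, the 5 largest interactions per class (per direction for appeared and lost) and up to 4 passed members per list by mean reads. Members and lists were chosen with earlier results of these data known, and words that matched unrelated genes were removed from the lists after their members were seen. Alternatives were median-ratio factors, scaling by the total, keeping genes that reach 50 CPM in 4 or more libraries, adding 5 instead of 1, a 2-fold minimum, a replicate block, the low-calcium libraries alone, voom run on recovered reads, thinning every library to the depth of the smallest, and leaving out each library in turn.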

Additional observations from a re-analysis of the deposited data

Results flagged for a closer look

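Because root minus shoot was measured at both calcium levels, the difference between those tissue differences was tested directly. This interaction passed for 431 genes in limma, and 43 of the 122 genes named by rule were among them. The values that follow are these interactions, low minus optimum calcium, on the log2 scale.

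Among tissue differences that were lost, interactions were -5.37 for the respiratory burst oxidase (Et_10B_003796), -4.96 for DC2.15 (Et_7B_055014) and -4.87 for sucrose synthase 2 (Et_4A_032822). The genes Et_3B_028344 and Et_3A_026233, with no described function, had -5.30 and -4.88. The low-calcium difference of the second (-1.08, adjusted p 0.052) passed in 9 alternative settings, where it would count as reversed. With a lost shoot excess stood polyol transporter 5 at 1.85, MST6 at 1.74, the lectin-domain kinase (Et_2B_020570) at 1.49, auxin response factor 10 at 1.39 and the B copy of ACAULIS5 at 1.32. Narrower differences had -4.30 in alcohol dehydrogenase 2, -4.25 in TDR, -4.16 in laccase-5, -3.69 in expansin-B7 and -3.15 in phospholipase D alpha 1. Members named for their lists added -2.95 for PIP2-6, 1.76 for the exchanger 1a (Et_3B_028509), -2.01 for peroxidase 72, -2.39 for the polygalacturonase, -1.44 for MYBS3 and 1.04 for the kinase Et_4B_036691. The list members IQ-DOMAIN 32 (-1.47) and cellulose synthase A subunit 7 (-2.37) had a shoot excess that appeared.

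Differences that appeared with a shoot excess had -6.60 in the late embryogenesis abundant protein, -5.28 in fasciclin-like protein 11, -3.72 in CYP75B3, -3.66 in laccase-4 and -2.98 in FAO2. With a root excess appeared Et_4A_034281, with no described function, at 1.68, tryptophan aminotransferase 1 at 1.27, PRR1 at 1.06, IAA1 at 0.92 and auxin response factor 9 at 0.90. Wider differences were -4.89 in FTSH 6, -2.97 in the xyloglucan endotransglucosylase, -2.81 in a transferase family protein (Et_1A_004954), -2.49 in WSD1 and 2.61 in Et_1A_007903, which has no described function. Reversed genes had -3.65 in the kinase Et_9A_061967, -2.79 in filament-like protein 7, -2.61 in IRL, -2.38 in a gene described as an N-acetylglucosaminyltransferase (Et_2A_017435) and -2.26 in ABCG36.

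A single library far from the other 3 of its group, by Dixon's criterion, was seen in 25 of 488 gene and group combinations (5.12%), where chance alone gives about 1 in 20. In low-calcium root replicate 3 it was the lowest for auxin response factor 10 (7.35), ACAULIS5 B (7.22) and IAA5 (Et_3B_029029, 8.66). In low-calcium shoot, replicate 1 stood apart for synthase 5 (Et_3B_031100, 10.65) and IAA1 (9.82), and replicate 3 for both copies of cellulose synthase A subunit 9 (10.18 and 10.14). Replicate 4 did so for auxin response factor 10 (8.07).

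In optimum-calcium root, replicate 3 stood apart most often, for arabinogalactan protein 31 (8.63), annexin D7 (Et_1B_012333, 10.15), IQ-DOMAIN 32 (8.39), peroxidase 47 (12.18), MYBS3 (7.91) and protein phosphatase 2C 12 (Et_1B_012461, 9.99). Replicate 4 did so for Et_1A_007903 (6.52), phospholipase D alpha 1 (6.21) and a chloroplast glyceraldehyde-3-phosphate dehydrogenase A (Et_7A_051207, 6.24), and replicate 1 for purple acid phosphatase 2 (3.35). In optimum-calcium shoot they were replicate 1 for alcohol dehydrogenase 2 (6.84), TDR (0.98) and MYB4 (4.92), replicate 2 for NRT1/PTR family 6.3 (9.03), replicate 3 for the kinase Et_8A_058293 (0.0) and DC2.15 (3.48), and replicate 4 for cinnamoyl-CoA reductase 1 (Et_8A_057718, 8.14).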

How the results depend on the processing

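The number of genes that differed between tissues held within 1.5 times of 3311 under low calcium (3027 to 3406 with 1 library left out) and of 3878 under optimum calcium (3663 to 3906), except that 2183 under low calcium were also at least 2-fold apart. Interaction counts moved more. The 431 genes became 196 with voom on the recovered reads, 195 of them shared, and 261 to 704 with 1 library left out. Narrower differences (207) became 83 with voom and 116 to 335 with 1 library left out, wider ones (19) 5 with voom, 32 with a pseudocount of 5 and 11 to 28, and reversed ones (23) 14 with the 50 CPM filter, 13 with a 2-fold minimum and 14 to 32. Appeared differences (49) became 30 with voom and 30 to 71, and lost ones (133) 63 with voom and 81 to 238. Leaving out low-calcium shoot replicate 3 gave the upper end of these interaction ranges. Counts over 1.5 times apart also came without low-calcium root replicates 2, 3 or 4, low-calcium shoot replicates 2 or 4, optimum-calcium root replicate 1 and optimum-calcium shoot replicate 1. The cause was not tested. Scaling by the total moved the median of all interactions to -0.12 from 0.07 and calls above 0 to 14.1% from 24.6%. The deviations of same-numbered libraries correlated at -0.405 to 0.302, with 6 of 24 pairs above 0.1. Differently numbered pairs were not set beside them, so whether equal numbers share plants or batches was not tested. With the replicate block 3256 genes passed under low calcium, 3828 under optimum calcium and 426 in the interaction. A fit of the low-calcium libraries alone gave 3254, and 3101 with the block. Over 122 named genes, 65 of 2806 repeats of the low-calcium difference lost the pass, in 15 genes, 12 gained it, in 2 genes, and 0 changed sign. For the interaction of the 43 that passed, 182 of 989 lost it, in 27 genes, and 0 changed sign. Keeping false word matches in the lists changed counts such as auxin genes higher in shoot under low calcium (1 to 9). The smallest library, low-calcium root replicate 1 with 1.20 Mreads, limits low genes most. Thinning all libraries to it left 392 interactions, 342 of them shared.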
